A study of Mus musculus with 30 samples.

Results

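5033404E19Rik, Pla1a, Grm3, P2ry14, Vstm4, Lin7a and Steap4 are 7 genes whose signal in brain microvessels was far lower in mice short of pericytes than in their controls, and which lie outside the classic set of pericyte markers. They were chosen by the size of their fall in mutants, out of 18194 genes with a probe set on the array. The 7 genes have 10 probe sets paired with them alone: 3 for Lin7a, 2 for Steap4 and 1 for each of the others, and the brightest probe set on average stands for its gene. All 7 passed the filter on low signal (a log2 signal over 4 on 3 or more of the 30 arrays), as did 11243 genes in all. Since the falls in mutants chose the genes, those falls are given below as descriptions without a test, and tests are kept for the differences between brain regions and for other genes.

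Microvascular fragments are small pieces of vessel prepared from brain, and their RNA was measured on 30 Affymetrix arrays. Ret mutants (pdgfbret/ret, 4 arrays, 7 to 10 months old) lacked on both alleles the retention motif that holds platelet-derived growth factor B (PDGF-B) near the cells that release it, and heterozygotes (pdgfbret/+, 4 arrays, 8 to 10 months old) were their controls; both were C57/B6/J, and the labels name no brain region. R26P mutants (Tie2Cre, R26P+/0, pdgfb-/-) had no mouse Pdgfb and made PDGF-B from 1 copy of a human transgene at Rosa 26 that Tie2Cre switched on in endothelium. Their controls (R26P+/0, pdgfb+/+) kept mouse Pdgfb and carried the same transgene silent, so both sides of this comparison hold R26P, and only the mutants hold Cre. Both came from a mixed C57/SV129 background, with 4 arrays each of cerebrum and cerebellum, and their age is given as 1 year in the sample titles and 2 months in the sample characteristics. Wild-type mice (C57/B6/J Notch3+/+, 2 months old, 3 arrays a region) were normalized apart from the rest and are compared only between their own regions. The arrays are labelled as biological replicates.

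Pericytes are mural cells that wrap brain capillaries within the basement membrane they share with endothelium. Endothelial PDGF-B recruits them through the receptor PDGFRB, and mice with too little of the factor at the vessel wall keep few of them. In bulk RNA of vessels, fewer cells of a type and less RNA per cell cannot be told apart. Of the 7 genes, Pla1a encodes a secreted phospholipase that cuts phosphatidylserine into lysophosphatidylserine, a lipid messenger. Grm3 encodes a metabotropic glutamate receptor coupled to inhibitory G proteins, and P2ry14 a G protein-coupled receptor for UDP-glucose and related UDP-sugars. Vstm4 encodes a membrane protein with a V-set immunoglobulin domain. Lin7a encodes a PDZ-domain scaffold that binds CASK and helps to place receptors and channels in membranes, and Steap4 a metalloreductase that reduces iron and copper. 5033404E19Rik, on chromosome 1, is listed by RefSeq as a transcribed pseudogene, and the other 6 as protein coding.

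Several libraries stood apart or went against their labels. Ret controls 1 to 3, labelled male, had high Xist (12.21 to 12.68) and Eif2s3y at 2.16, and ret control 4, labelled female, had the reverse. Gh, a pituitary hormone gene, was above 13 on ret mutants 1, 2 and 4, on R26P control cerebrum 2 and 3, on R26P mutant cerebrum 2 and 3, on R26P mutant cerebellum 3 and on wild-type cerebrum 3, and at 4.83 or below on all other arrays. Gabra6, a cerebellar granule neuron gene, read 2.21 on R26P mutant cerebellum 3 and 2.39 on cerebrum 3 of the same number, against 2.93 to 3.85 and 2.16 on the other mutant arrays, so the region labels of that pair are in doubt. Pdgfb ranged from 12.05 to 12.86 in R26P controls and from 4.73 to 8.01 in R26P mutants, below all controls; R26P mutant number 3 stood apart at 8.01 in cerebrum and 7.51 in cerebellum, against 4.73 to 6.45 on the other mutant arrays; in the ret model it ranged from 11.71 to 12.51 in mutants and from 11.72 to 12.12 in controls, and a probe set for the transcript does not read the lost motif. The defining markers of the vessel wall were present. Cldn5, an endothelial junction gene, ranged from 15.43 to 15.92 on the ret and R26P arrays. Pdgfrb, the receptor on pericytes, ranged from 11.60 to 13.47 on their control arrays and from 8.11 to 11.14 on their mutant arrays. On the wild-type arrays, normalized apart, Cldn5 ranged from 14.99 to 15.15 and Pdgfrb from 12.37 to 13.15.

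The promoters of 5 of the 7 genes are shown as a description. The genes were chosen by their falls in mutants, and shared control of them was not tested. RefSeq promoters on build GRCm38.p6 were matched by symbol, and the 250 bases before the most upstream listed start are printed. P2ry14 has 4 listed starts and Lin7a 2, and only the most upstream was searched. The bases run 5′ to 3′ on the gene's own strand, in lower case, with matches to 3 core promoter boxes in capitals. They were searched on both strands: the TATA box is TATAAA. The second, named by its letters, is CCAAT. The GC box is spelled GGGCGG. They lie at chr5:9725353-9725602 (minus strand) for Grm3, chr3:59153493-59153742 (minus) for P2ry14, chr14:32856506-32856755 (plus) for Vstm4, chr10:107271581-107271830 (plus) for Lin7a and chr5:7960222-7960471 (plus) for Steap4.
Grm3: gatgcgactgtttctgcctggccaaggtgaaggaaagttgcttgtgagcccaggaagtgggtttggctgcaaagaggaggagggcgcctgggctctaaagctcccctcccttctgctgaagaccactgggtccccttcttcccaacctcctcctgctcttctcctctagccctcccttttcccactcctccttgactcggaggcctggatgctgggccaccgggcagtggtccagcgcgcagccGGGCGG
P2ry14: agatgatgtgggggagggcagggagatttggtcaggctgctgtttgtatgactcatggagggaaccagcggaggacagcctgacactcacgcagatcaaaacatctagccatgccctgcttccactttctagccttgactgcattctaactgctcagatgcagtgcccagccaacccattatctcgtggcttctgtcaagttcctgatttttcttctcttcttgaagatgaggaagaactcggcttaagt
Vstm4: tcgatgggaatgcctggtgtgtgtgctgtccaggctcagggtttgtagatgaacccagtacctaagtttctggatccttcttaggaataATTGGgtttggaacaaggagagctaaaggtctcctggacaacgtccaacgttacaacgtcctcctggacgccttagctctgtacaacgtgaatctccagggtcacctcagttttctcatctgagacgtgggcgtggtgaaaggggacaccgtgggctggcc
Lin7a: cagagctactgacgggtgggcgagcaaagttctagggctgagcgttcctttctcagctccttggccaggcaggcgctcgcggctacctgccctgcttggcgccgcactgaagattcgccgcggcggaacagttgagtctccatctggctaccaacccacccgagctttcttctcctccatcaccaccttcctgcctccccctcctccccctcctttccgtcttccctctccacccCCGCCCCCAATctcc
Steap4: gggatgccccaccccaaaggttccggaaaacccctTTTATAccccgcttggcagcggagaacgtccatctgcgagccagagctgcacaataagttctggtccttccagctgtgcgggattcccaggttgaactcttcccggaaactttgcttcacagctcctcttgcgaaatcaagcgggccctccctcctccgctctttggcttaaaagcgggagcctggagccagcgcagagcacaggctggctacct
No box was common to all 5 windows. Grm3 has a GC box 6 to 1 bases before its start. Lin7a has a GC box at 15 to 10 and a CCAAT box at 9 to 5, which lie next to each other without overlap. Vstm4 has a CCAAT box at 161 to 157, and Steap4 a TATA box at 215 to 210. The P2ry14 window has none of the 3. An E-box (CANNTG) occurred in P2ry14, Vstm4, Lin7a and Steap4, and no window held a CArG box, the site of serum response factor in smooth muscle genes. Of 27025 RefSeq promoters of the same length, 13% hold a TATA box, 34.5% a CCAAT box, 33.0% a GC box, 66.1% an E-box and 1.4% a CArG box. The GC content was 62.4% for Grm3, 50.0% for P2ry14, 52.4% for Vstm4, 63.6% for Lin7a and 58.4% for Steap4, against a median of 52.0% over all promoters. Grm3 and Steap4 lie on the same chromosome.

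In all 3 mutant comparisons, every mutant array lay below every control array for each of the 7 genes. Such a gap was found for 11.8% of all tested genes in ret mutants, and for 13% and 11.5% in R26P cerebrum and cerebellum, and nothing is read from the members' count because the falls chose them. The median log2 change of the 7 genes was −4.19 in the ret model and −4.51 and −3.73 in the cerebrum and cerebellum of the R26P model, where the medians over all tested genes were 0.01, 0.01 and 0.00. Values below are log2 signals in the order of the array numbers, and changes are log2 differences with their standard error.

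**Figure D1:**
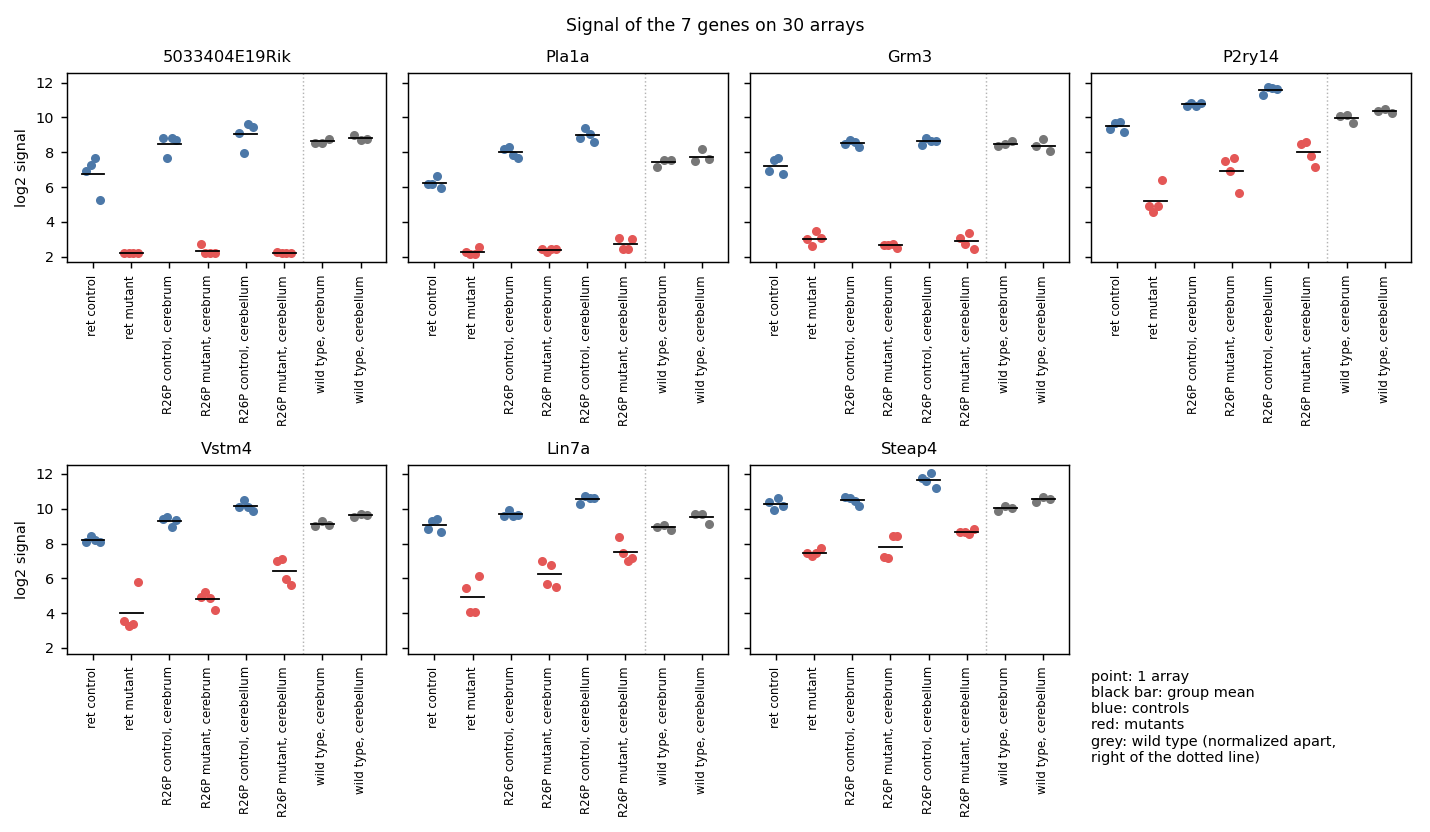
Log2 signal (vertical axis) of the 7 genes on all 30 arrays, by group (horizontal axis); each point is 1 array, black bars are group means, blue marks controls, red mutants and grey wild type. Mutant arrays lie below all control arrays in every panel, close to the bottom of the scale for 5033404E19Rik, Pla1a and Grm3 and well above it for Steap4.

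Grm3, the glutamate receptor, was near background in every mutant group. Its ret controls read 6.95, 7.56, 7.65 and 6.73 and its ret mutants 3.01, 2.59, 3.46 and 3.09. R26P cerebrum read 8.46, 8.71, 8.58 and 8.31 in controls and 2.69, 2.69, 2.74 and 2.52 in mutants. R26P cerebellum read 8.43, 8.83, 8.64 and 8.63 in controls and 3.05, 2.75, 3.35 and 2.46 in mutants. No mutant array came within 3 log2 units of a control array. The changes were −4.19 ± 0.26 in the ret model and −5.85 ± 0.10 and −5.73 ± 0.19 in R26P cerebrum and cerebellum, or 18.2-, 57.7- and 53.2-fold.

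P2ry14, the UDP-sugar receptor, kept a signal well above background in R26P mutants. Signals were 9.36, 9.66, 9.74 and 9.19 in ret controls and in ret mutants 4.91, 4.59, 4.93 and 6.39. R26P cerebrum read 10.65, 10.86, 10.68 and 10.81 in controls and 7.49, 6.94, 7.66 and 5.65 in mutants. R26P cerebellum read 11.27, 11.73, 11.71 and 11.61 in controls and 8.49, 8.59, 7.81 and 7.14 in mutants. The fourth array was the highest of the ret mutants and the lowest of the R26P mutants in both regions. The changes were −4.28 ± 0.38, −3.81 ± 0.41 and −3.57 ± 0.31.

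Pla1a, the phospholipase, was near background in all mutants. Its ret controls read 6.15, 6.18, 6.66 and 5.93 and its ret mutants 2.27, 2.17, 2.17 and 2.56. R26P cerebrum read 8.21, 8.28, 7.84 and 7.68 in controls and 2.44, 2.26, 2.44 and 2.44 in mutants. R26P cerebellum read 8.85, 9.41, 9.04 and 8.59 in controls and 3.10, 2.44, 2.44 and 3.01 in mutants. The value 2.44 returned on several R26P mutant arrays. The changes were −3.94 ± 0.17, −5.61 ± 0.14 and −6.23 ± 0.22, or 15.3-, 48.8- and 74.8-fold, and their sizes depend on where the background correction put the lowest signals.

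Steap4, the metalloreductase, kept the most signal relative to its controls. In the ret model, controls read 10.40, 9.93, 10.63 and 10.15 and mutants 7.48, 7.28, 7.45 and 7.74. R26P cerebrum read 10.67, 10.64, 10.45 and 10.18 in controls and 7.24, 7.19, 8.46 and 8.43 in mutants. R26P cerebellum read 11.75, 11.61, 12.05 and 11.18 in controls and 8.69, 8.65, 8.57 and 8.85 in mutants. The mutant arrays of cerebrum fell into a lower pair (1 and 2) and a higher pair (3 and 4), a split that the cerebellar arrays of the same numbers did not show. The changes of −2.79 ± 0.17, −2.66 ± 0.33 and −2.96 ± 0.18 were the smallest of the 7 in each comparison, at 6.91-, 6.31- and 7.77-fold. Its other probe set stayed between 2.16 and 2.33 on all arrays, at or near their lowest value.

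Vstm4, the V-set membrane protein, had the widest spread among ret mutants. Its ret controls read 8.07, 8.46, 8.22 and 8.12 and its ret mutants 3.56, 3.27, 3.38 and 5.82. R26P cerebrum read 9.40, 9.55, 8.97 and 9.33 in controls and 4.93, 5.19, 4.86 and 4.21 in mutants. R26P cerebellum read 10.11, 10.51, 10.10 and 9.89 in controls and 6.99, 7.13, 5.96 and 5.63 in mutants. The fourth ret mutant lay apart from the other ret mutants, and all cerebellar mutant arrays lay above all cerebral ones. The changes were −4.21 ± 0.55, −4.51 ± 0.22 and −3.73 ± 0.35.

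Lin7a, the scaffold, lay low in ret mutants and kept more signal in R26P cerebellum. On the ret arrays, controls read 8.84, 9.30, 9.41 and 8.65 and mutants 5.46, 4.09, 4.09 and 6.12. R26P cerebrum read 9.60, 9.95, 9.61 and 9.65 in controls and 6.99, 5.68, 6.75 and 5.53 in mutants. R26P cerebellum read 10.29, 10.73, 10.64 and 10.60 in controls and 8.35, 7.46, 7.02 and 7.19 in mutants. The cerebellar mutant arrays again lay above the cerebral ones. The changes were −4.11 ± 0.48, −3.47 ± 0.33 and −3.06 ± 0.28. The second Lin7a probe set gave 2.97 to 6.70 on the control arrays of the same models and 2.16 to 2.97 on the mutant arrays. The third stayed near background in the ret model. On the R26P arrays it read 2.54 to 4.72 in controls and 2.16 to 2.17 in mutants.

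5033404E19Rik, the transcribed pseudogene, was at its lowest value on most mutant arrays. Its ret controls read 6.92, 7.25, 7.69 and 5.26 and all 4 ret mutants 2.19. R26P cerebrum read 8.80, 7.67, 8.82 and 8.70 in controls and 2.71, 2.20, 2.19 and 2.19 in mutants. R26P cerebellum read 9.09, 7.98, 9.64 and 9.43 in controls and 2.28, 2.19, 2.19 and 2.19 in mutants. Of the 12 mutant arrays, 10 sat at the lowest value of the probe set, within 0.05. The changes of −4.59 ± 0.47, −6.17 ± 0.27 and −6.82 ± 0.33, or 24.0-, 72.1- and 113-fold, were the largest of the 7 in each comparison and depend on the background correction as those of Pla1a and Grm3 do. Among all falls they ranked 3, 2 and 2, and the 7 genes together ranked from 3 to 46 in the ret model, 2 to 80 in R26P cerebrum and 2 to 51 in cerebellum.

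Over the 6 groups normalized together, each of the 7 genes had its 3 mutant groups at the bottom and its 3 control groups at the top. Ret controls had the lowest control mean for every gene, for example 6.23 ± 0.31 for Pla1a against 8.00 ± 0.29 in R26P control cerebrum (SD, n = 4). The arrays of those 2 groups overlapped for 5033404E19Rik (6.78 ± 1.06 against 8.50 ± 0.55) and Steap4 (10.28 ± 0.30 against 10.49 ± 0.22) and not for the other 5 genes. Within the mutants, neighbouring groups in this order overlapped, except that R26P cerebellum lay clear of R26P cerebrum for Vstm4, Lin7a and Steap4. Of the 11243 tested genes, 236 showed that gap. Ret mutants had the lowest mutant mean for 6 of the 7 genes, Grm3 being the exception at 3.04 ± 0.36 against 2.66 ± 0.09 in R26P mutant cerebrum. Cerebellum lay above cerebrum among mutant means for 6 of the 7 genes, 5033404E19Rik being the exception. Model, strain, age and region differ together between ret and R26P arrays and cannot be told apart, and neither the difference between the models nor that of the R26P effect between regions was tested for these genes.

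**Figure D2:**
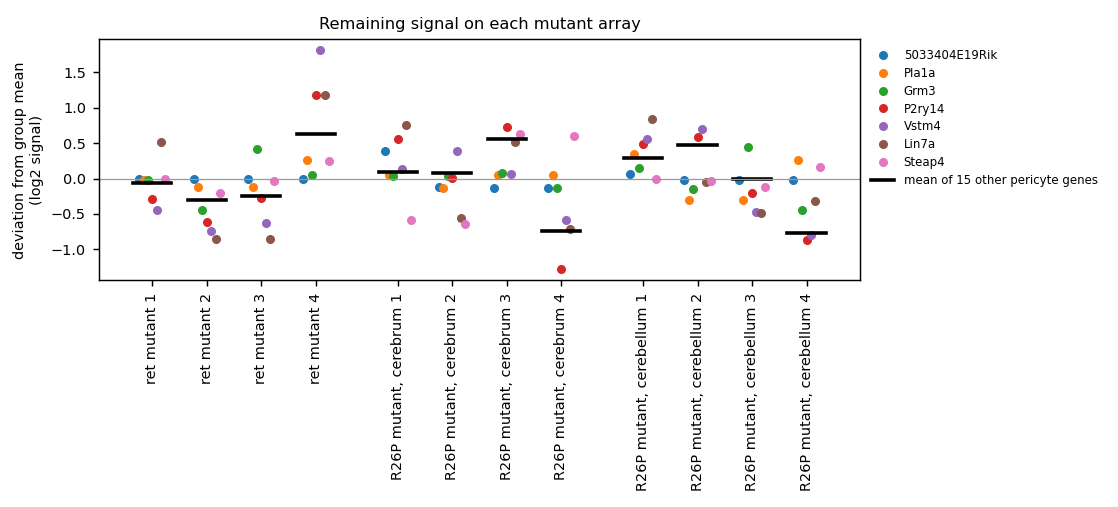
Deviation of each gene from its group mean (log2, vertical axis) on the 12 mutant arrays (horizontal axis); coloured points are the 7 genes and black lines the mean of 15 other pericyte genes. Ret mutant 4 lies high for 5 of the 7 genes, with the pericyte mean 0.63 above its group, and on R26P mutant number 4 Grm3, P2ry14 and Vstm4 lie lowest in both regions while Steap4 lies high.

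The signal that remained in mutants varied from array to array, and the 7 genes did not all vary alike. Ret mutant 4 was the highest of its group for Pla1a, P2ry14, Vstm4, Lin7a and Steap4, and ret mutant 2 the lowest for Grm3, P2ry14, Vstm4, Lin7a and Steap4. The mean of 15 other pericyte genes deviated by 0.63 and −0.31 from the group mean on those arrays. Ret mutant 4 also had the highest mean of its group for smooth muscle markers (8.16 against 6.58 to 7.36). So it did for perivascular fibroblast (8.17 against 6.54 to 6.85) and pituitary markers (12.69 against 3.96 to 10.89). Astrocyte (8.24 against 7.79 to 7.92) and neuron markers (4.59 against 3.25 to 3.79) were highest there too. Microglia and macrophage markers were also highest there (12.12 against 11.09 to 11.91). Endothelial markers were lowest there (13.03 against 13.22 to 13.31), and oligodendrocyte markers (5.49) lay within the range of the other arrays (5.36 to 5.6). The part of these cell types in the higher signals of ret mutant 4 was not tested. R26P mutant number 4 was the lowest in cerebrum for Grm3, P2ry14, Vstm4 and Lin7a and in cerebellum for Grm3, P2ry14 and Vstm4, where the pericyte mean deviated by −0.74 and −0.77. Steap4 went the other way on these arrays, second highest in cerebrum (8.43) and highest in cerebellum (8.85), and Pla1a was second highest in cerebellum (3.01). On R26P mutant cerebrum 2, Vstm4 was the highest of its group and Steap4 the lowest. Among controls, R26P control number 2 was the highest for the same 5 genes (Pla1a, Grm3, P2ry14, Vstm4 and Lin7a) in both regions, with the pericyte mean only 0.07 and 0.05 above its group, while 5033404E19Rik was lowest there in both. Over the 18 control and wild-type arrays, with group means removed, the 21 pairs of the 7 genes had a median correlation of 0.37 (from −0.33 for 5033404E19Rik with Vstm4 to 0.87 for P2ry14 with Lin7a), and all pairs of tested genes a median of 0.03. The median was 0.36 with pericyte markers, 0.32 with smooth muscle markers, 0.43 with perivascular fibroblast markers, −0.04 with endothelial markers and −0.54 with microglia and macrophage markers. Not all 7 genes shared these medians. Steap4 had 0.04 with pericyte, −0.1 with smooth muscle and 0.11 with fibroblast markers. 5033404E19Rik had 0.1 with fibroblast and 0.16 with microglia and macrophage markers. For the other 5 genes the medians with these 4 lists had the signs of the pooled ones. These correlations are descriptions: arrays of the same number in the 2 regions deviate together and are not independent, and all markers share the arrays.

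Other cell types moved with the mutants as well. Of 14 tested pericyte markers, all 14 fell in each mutant comparison (median log2 changes of −3.28, −2.95 and −2.83 for the ret model and for R26P cerebrum and cerebellum). All 9 astrocyte markers were lower in each comparison (medians −1.22, −1.86 and −2.0), and 7, 7 and 6 of them passed. The mean of the list over an array ranged from 8.78 to 9.34 in ret controls and from 7.79 to 8.24 in ret mutants. Gfap was within 0.5 of the array's lowest value on all arrays of all 3 mutant groups and of the ret controls. All 9 smooth muscle markers were lower too (medians −1.37, −1.61 and −1.12), and 1, 8 and 3 of them passed. All 8 perivascular fibroblast markers were likewise lower (medians −0.76, −1.42 and −1.39), and 2, 6 and 4 of them passed. Col1a1 was near the lowest value in all 3 mutant groups and also in the ret controls and the R26P control cerebrum. The 9 microglia and macrophage markers were all higher in ret mutants (median 0.50) and all lower in R26P cerebrum and cerebellum (medians −0.69 and −0.65), and 1 of these differences passed, that of P2ry12 in R26P cerebrum. The 12 endothelial markers had medians of −0.04, 0.02 and 0.16. The 6 tested pituitary markers had medians of 6.13, 0.80 and 2.03, their array means ranging from 3.55 to 3.64 in ret controls and from 3.96 to 12.69 in ret mutants. Whether any of the other cell types has a part in the falls of the 7 genes was not tested. Without ret mutants 1, 2 and 4, which leaves ret mutant 3 as the only mutant array, the median change was −4.56. Without the Gh-positive arrays in R26P cerebrum, which leaves arrays 1 and 4 of controls and of mutants, it was −4.80.

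The region comparisons ask whether the 7 genes differ between cerebellar and cerebral vessels. In wild type, P2ry14, Vstm4, Lin7a and Steap4 read higher on every cerebellar array than on every cerebral one, but none of the 7 passed the test. Such a gap, with cerebellum higher, was found for 1115 of the 11243 tested genes. P2ry14 read 10.07, 10.14 and 9.69 in cerebrum and 10.40, 10.47 and 10.28 in cerebellum (0.42 ± 0.13, SE, limma adjusted p = 0.22). Vstm4 read 9.03, 9.32 and 9.08 against 9.52, 9.70 and 9.65 (0.48 ± 0.10, limma adjusted p = 0.086), and Steap4 9.85, 10.18 and 10.05 against 10.39, 10.67 and 10.57 (0.51 ± 0.11, limma adjusted p = 0.10). Lin7a had the largest difference of the 7, at 8.95, 9.04 and 8.79 against 9.72, 9.71 and 9.15 (0.60 ± 0.17, limma adjusted p = 0.18). For the other 3 genes the regions overlapped. Pla1a read 7.14, 7.54 and 7.57 against 7.48, 8.20 and 7.59 (0.34 ± 0.22, and 0.12 without cerebellar array 2), 5033404E19Rik 8.56, 8.56 and 8.77 against 8.97, 8.70 and 8.75 (0.18 ± 0.10), and Grm3 8.35, 8.46 and 8.67 against 8.37, 8.74 and 8.05 (−0.11 ± 0.19, reaching 0.06 without cerebellar array 3). The count of 0 members called stands beside 1.78% of all genes called higher in cerebellum, and at an unadjusted p below 0.05 4 members were higher, of 1788 genes (15.9%) in either direction. With the replicate number as a block the count stayed 0, beside 0.987% of all genes.

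In R26P controls, P2ry14, Lin7a and Steap4 were higher in cerebellum, beside 0.889% of all genes called higher. P2ry14 was higher by 0.83 ± 0.12 (10.75 ± 0.10 against 11.58 ± 0.21, SD, n = 4; limma adjusted p = 0.019), Lin7a by 0.87 ± 0.12 (limma adjusted p = 0.022) and Steap4, with the largest difference, by 1.16 ± 0.19 (limma adjusted p = 0.038), each on 4 of 4 pairs of arrays. All cerebellar arrays lay above all cerebral ones for 602 of the 11243 tested genes, these 3 among them. Vstm4 (0.84 ± 0.17, limma adjusted p = 0.067) and Pla1a (0.97 ± 0.20, limma adjusted p = 0.080) were also without overlap and did not pass. With the replicate number as a block, which pairs these arrays, both passed (limma adjusted p = 0.025 and 0.017), giving 5 of the 7 genes beside 3.1% of all genes. 5033404E19Rik (0.54 ± 0.41, limma adjusted p = 0.61; 0.26 without cerebrum array 2 and 0.89 without cerebellum array 2) and Grm3 (0.12 ± 0.12, limma adjusted p = 0.70) passed in neither fit. The calls rest on all arrays: none of the 3 was left without cerebrum array 1, 3 or 4 or without cerebellum array 2, and Steap4 alone was left without cerebellum array 4. Without cerebellum array 1 or cerebrum array 2, Steap4 was lost. With 1 array left out, the differences were 0.78 to 0.93 for P2ry14, 0.81 to 0.96 for Lin7a and 1.03 to 1.32 for Steap4. With probe sets averaged per gene, Steap4, whose other probe set is at background, differed by 0.61 and did not pass (limma adjusted p = 0.055), and Lin7a differed by 0.96 and did not pass (limma adjusted p = 0.15). Without cerebrum arrays 2 and 3, which held pituitary RNA, the differences were 0.85, 0.94 and 1.22 and none passed (limma adjusted p = 0.16, 0.11 and 0.21).

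In R26P mutants, the remaining signal of Vstm4, Lin7a and Steap4 lay higher on all cerebellar arrays than on all cerebral ones, by 1.63 ± 0.38, 1.27 ± 0.43 and 0.86 ± 0.33. Such a gap was found for 236 of the 11243 tested genes. The lowest cerebellar and highest cerebral arrays were close for Lin7a (7.02 against 6.99) and Steap4 (8.57 against 8.46), and further apart for Vstm4 (5.63 against 5.19). P2ry14 differed by 1.07 ± 0.51, with overlap, and by 0.64 without cerebrum array 4. With probe sets averaged per gene, Lin7a differed by 0.56 and Steap4 by 0.43. Pla1a, Grm3 and 5033404E19Rik, all near background, differed by 0.35 ± 0.17, 0.24 ± 0.18 and −0.11 ± 0.13, the last reaching 0.02 without cerebrum array 1. None of the 7 passed the test, nor did any of the 11243 genes (0% called in limma, with and without the replicate block); 3 members and 621 genes (5.5%) had an unadjusted p below 0.05. Without number 3 in both regions, whose labels are in doubt, the differences of Vstm4, Lin7a, P2ry14 and Steap4 were 1.81, 1.60, 1.38 and 1.11. Other cell types differed between the regions too. Of 14 pericyte markers, 13 read higher in cerebellum in wild type and 14 in R26P controls. Of these, 5 and 8 passed (medians 0.52 and 0.69, against −0.04 and 0.03 over all genes). Of 8 perivascular fibroblast markers, 8 and 6 read higher, and 2 and 0 passed (medians 0.62 and 0.66). The 9 microglia and macrophage markers had medians of −0.57 and −0.62, the 12 endothelial markers −0.11 and −0.06, and the 6 pituitary markers −1.59 and −3.48. The part of these shifts in the members' region differences was not tested.

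**Figure D3:**
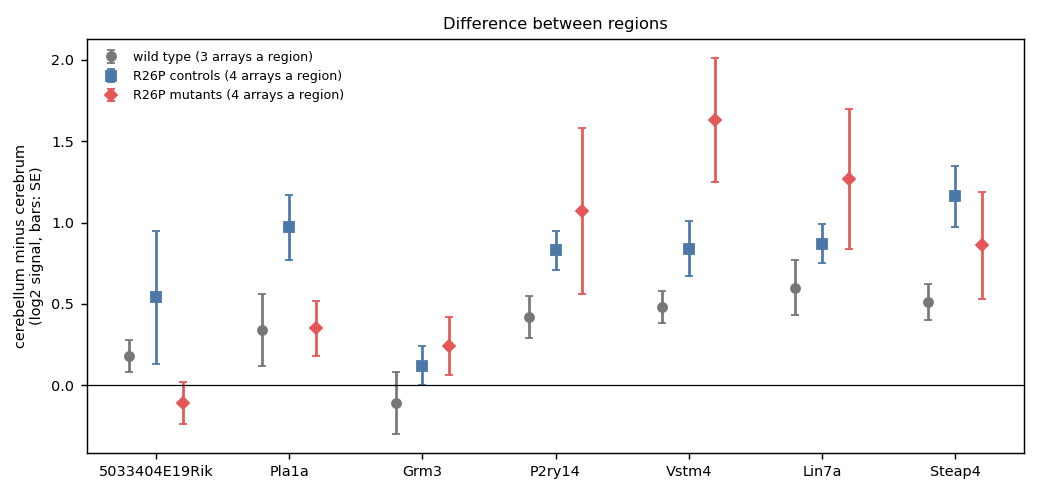
Cerebellum minus cerebrum (log2 signal, vertical axis) of the 7 genes (horizontal axis) in wild type (grey circles, 3 arrays a region), R26P controls (blue squares, 4) and R26P mutants (red diamonds, 4); bars are standard errors. Steap4 shows the largest difference in controls (1.16) and Vstm4 in mutants (1.63), while Grm3 lies near 0 in controls and wild type.

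Relatives and partners of the 7 genes were listed from textbook knowledge, 38 of them tested. For ret mutants 9 passed, for R26P mutants 10 in cerebrum and 6 in cerebellum. Over all genes, 8.63% were called lower and 8% higher in the ret model, 10.3% and 8.35% in R26P cerebrum, and 8.7% and 6.94% in cerebellum. The counts depend on the arrays: with a single ret mutant left (3), assumed to vary like the controls, 4 passed, and without the Gh-positive arrays in R26P cerebrum, 2. Leaving out 1 array in R26P cerebrum gave 5 without mutant array 1 and 6 without control array 1, control array 3 or mutant array 2.

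Among metabotropic glutamate receptors, of 4 tested genes beside Grm3 with their Homer scaffolds, Grm7 fell in the R26P mutants and Homer3 in the ret mutants. Grm7, another receptor coupled to inhibitory G proteins, fell by 2.45 ± 0.19 in cerebrum (limma adjusted p = 0.00023) and by 3.84 ± 0.09 in cerebellum (limma adjusted p = 1.6e-06), from 6.14 ± 0.13 to 2.30 ± 0.10 (SD, n = 4) there. In ret mutants its difference of −1.02 ± 0.35, from 3.29 to 2.27, did not pass (limma adjusted p = 0.085). The Grm7 mutant means, from 2.27 to 2.47, lay near the lowest value of these arrays (2.16). The sizes of its falls thus depend on the background correction and on the control level. Homer3, which links these receptors to intracellular partners, fell by 0.75 ± 0.15 (limma adjusted p = 0.015). Grm7 was also higher in cerebellum in R26P controls, by 1.22 ± 0.19 (limma adjusted p = 0.032).

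Around P2ry14, 9 nucleotide receptors and genes of UDP-sugar supply were tested. Ugp2, which makes UDP-glucose, fell in all 3 comparisons, by 0.39 ± 0.11, 0.76 ± 0.12 and 0.67 ± 0.13 (limma adjusted p = 0.043, 0.0057 and 0.014). Slc35d2, a nucleotide sugar transporter, fell by 0.90 ± 0.15 in ret mutants (limma adjusted p = 0.0071). P2ry12, the microglial ADP receptor, fell by 1.42 ± 0.39 in R26P cerebrum (limma adjusted p = 0.041), where all 9 microglia and macrophage markers, P2ry12 among them, were lower, and P2ry13, its neighbour in the family, did not pass (−1.14 ± 0.40, limma adjusted p = 0.082). The remaining receptors and enzymes tested (P2ry1, P2ry2, P2ry6, Ugdh and Slc35d1) passed in none of the 3.

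Of 4 tested V-set relatives of Vstm4, Igsf3 went the other way. Igsf3, an immunoglobulin superfamily membrane protein, rose by 3.83 ± 0.17 in ret mutants and by 4.32 ± 0.51 and 3.20 ± 0.47 in the cerebrum and cerebellum of R26P mutants (limma adjusted p = 2.6e-05, 0.0013 and 0.0042), in ret from 5.36 ± 0.33 to 9.20 ± 0.14 (SD, n = 4). Vstm2b fell by 1.51 ± 0.18 and Ptgfrn, a partner of tetraspanins, by 0.81 ± 0.17 in ret mutants (limma adjusted p = 0.0020 and 0.016). Igsf8, a partner of the same kind, fell by 0.70 ± 0.15 in R26P cerebellum (limma adjusted p = 0.022).

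Of 7 tested partners and relatives of Lin7a, Cask, the kinase-like scaffold that binds LIN7 proteins, fell by 0.53 ± 0.11 and 0.43 ± 0.10 in R26P cerebrum and cerebellum (limma adjusted p = 0.017 and 0.024). Dlg1, a further scaffold of such complexes, fell by 0.42 ± 0.11 in R26P cerebrum (limma adjusted p = 0.034). Patj, a cell polarity scaffold, rose by 0.75 ± 0.16 in ret mutants (limma adjusted p = 0.018). The paralog Lin7c read −0.67 ± 0.20 in R26P cerebrum and missed the threshold (limma adjusted p = 0.051).

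Of 9 tested STEAP relatives and metal genes around Steap4, Cp rose in all 3 comparisons. Cp encodes ceruloplasmin, a copper-bearing ferroxidase, and rose by 1.17 ± 0.13, 1.22 ± 0.15 and 0.98 ± 0.18 (limma adjusted p = 0.0014, 0.0017 and 0.011). Tfrc, the transferrin receptor, fell by 1.57 ± 0.14 in ret mutants and 0.98 ± 0.24 in R26P cerebrum (limma adjusted p = 0.00050 and 0.027), and Slc11a2, an iron importer, by 0.34 ± 0.10 in R26P cerebrum (limma adjusted p = 0.046). The nearest paralogs of Steap4 had differences of −1.64 ± 0.52 (Steap1) and −2.15 ± 0.73 (Steap2) in R26P cerebrum and did not pass (limma adjusted p = 0.064 and 0.077). Among 5 tested relatives of Pla1a and genes of its lipid product, only Abhd16a, a phosphatidylserine lipase, passed, in R26P cerebrum (higher by 0.31 ± 0.08, limma adjusted p = 0.029). In ret mutants and R26P cerebellum, where none of the 5 passed, the pair with the highest mean signal over all 30 arrays was Abhd12, a lysophosphatidylserine lipase (0.44 ± 0.14 and −0.20 ± 0.24), and Lpl, lipoprotein lipase (0.18 ± 0.51 and −0.98 ± 0.41).

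**Figure D4:**
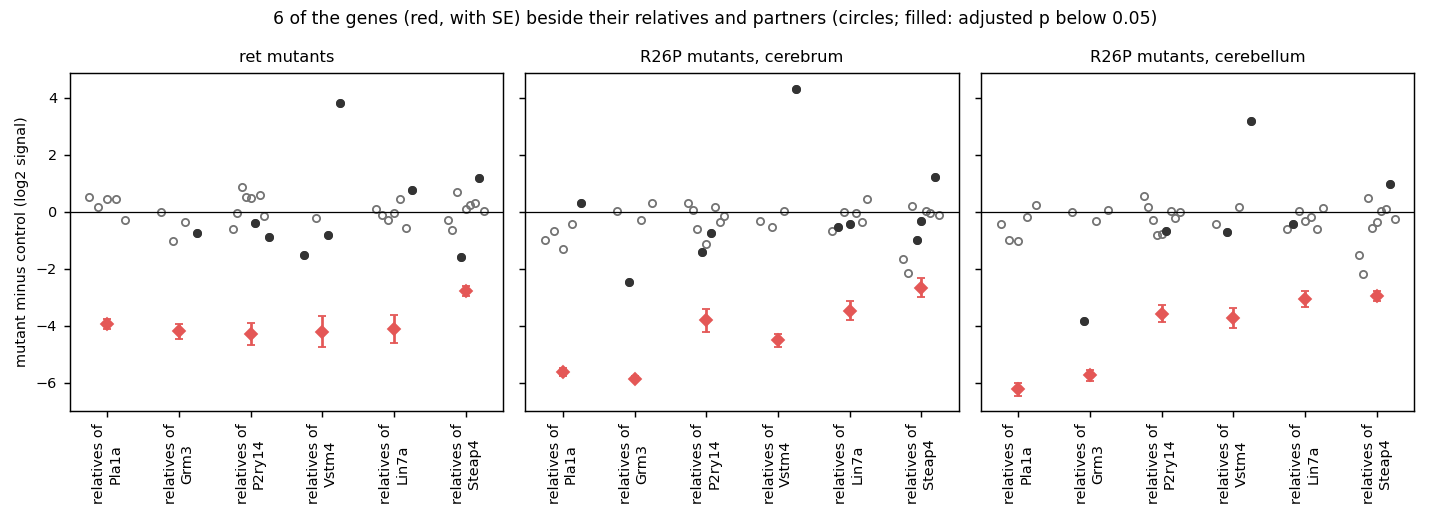
Mutant minus control (log2 signal, vertical axis) for 6 of the genes (red diamonds with standard error; 5033404E19Rik has no listed relatives) beside their relatives and partners (circles, filled where the adjusted p is below 0.05), in 3 comparisons. Igsf3 stands alone above 3 in each panel, and Grm7 is the relative that fell furthest in R26P mutants.

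The nearest tested genes on the chromosome mostly did not follow the 7 genes. Of the 14 neighbours, Slc30a10, next to 5033404E19Rik and encoding a manganese exporter, fell in all 3 comparisons, with changes of −1.94 ± 0.35, −2.83 ± 0.33 and −3.75 ± 0.33 (limma adjusted p = 0.0097, 0.0013 and 0.00049), reaching 3.10 ± 0.00 (SD, n = 4) in ret mutants and in R26P cerebrum. Lyplal1, on the other side, rose by 1.12 ± 0.17 in ret mutants and 1.14 ± 0.31 in R26P cerebrum (limma adjusted p = 0.0046 and 0.038) and did not pass in cerebellum (0.98 ± 0.36, limma adjusted p = 0.10). Med12l, which overlaps P2ry14 in RefSeq, fell by 1.42 ± 0.28 and 1.03 ± 0.26 in R26P cerebrum and cerebellum (limma adjusted p = 0.012 and 0.034). Ppp1r12a, beside Lin7a, a subunit of myosin phosphatase, fell by 0.76 ± 0.11 and 0.64 ± 0.10 there (limma adjusted p = 0.0026 and 0.0063). Sema3e, beside Grm3, a semaphorin guidance factor, rose by 2.57 ± 0.27 in ret mutants (limma adjusted p = 0.0012). Cox17, Timmdc1, Dmtf1, Parg, Wdfy4, Ccdc59, P2ry13, Steap1 and Sri passed in none of the 3.

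**Figure D5:**
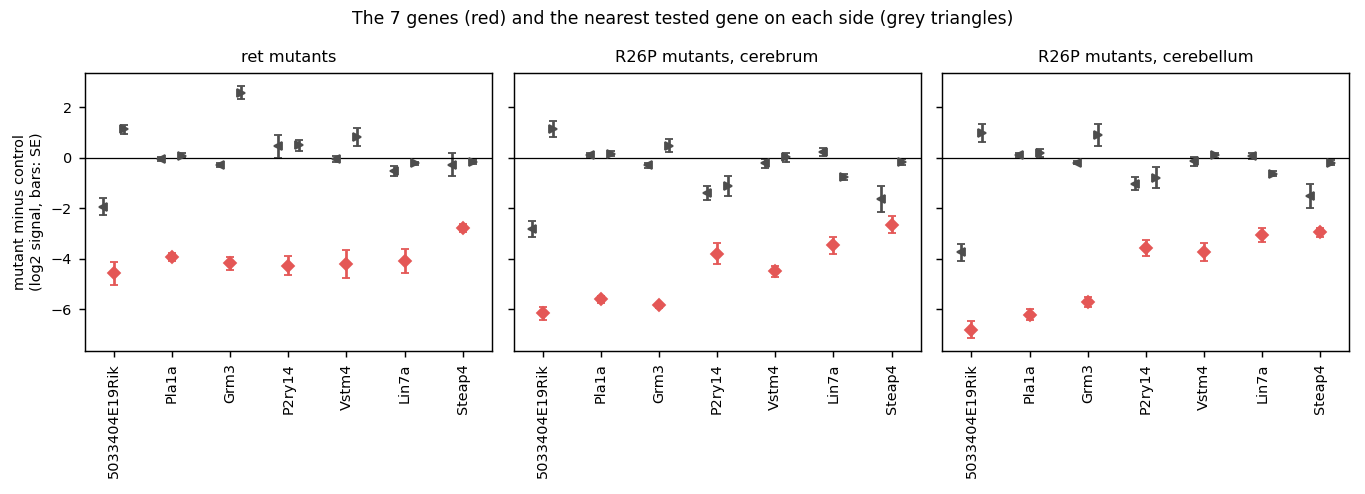
Mutant minus control (log2 signal, vertical axis, bars are standard errors) for the 7 genes (red diamonds) and the nearest tested gene on each side (grey triangles pointing to that side), in 3 comparisons. Slc30a10, left of 5033404E19Rik, is the neighbour that fell in all 3, and most of the others lie near 0.

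Genes with the most similar profiles over the means of the 6 ret and R26P groups, each centred on its own mean, were found by the root mean square difference in log2 signal. Lin7a had the closest match, with Cspg4 at 0.084 and Casq2 at 0.127. P2ry14 matched Higd1b at 0.197 and Lama2 at 0.234, Vstm4 matched Lama2 at 0.199 and Tbx2 at 0.264, and Steap4 matched Pcdh18 at 0.225 and Arhgap42 at 0.248. The 3 genes at background in mutants were matched more loosely: Pla1a by Kcnj8 at 0.613 and Nodal at 0.673, Grm3 by Kcnj8 at 0.722 and Abcc9 at 0.796, and 5033404E19Rik by Abcc9 at 0.911 and Kcnj8 at 0.922. Cspg4, Higd1b, Kcnj8 and Abcc9 are on the list of pericyte markers used here. The profiles are mostly made of the falls in mutants that chose the 7 genes, so the matches are other genes with falls of like size, and nothing is read from their being pericyte markers.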

How the data were processed

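RNA of brain microvascular fragments had been hybridised to 30 arrays. Per the submitters' processing notes, the authors used GCRMA 2.6.0 and R 2.4.1, a method that subtracts background and normalizes by quantiles before it condenses probes to 1 number a probe set. The deposited log2 signals entered without further change. The 24 ret and R26P arrays share a lowest value of 2.16 and the 6 wild-type arrays 2.17, so they were normalized apart and not compared. Of 45101 probe sets, 34958 are paired with 1 gene, and a gene was represented by its brightest.

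Tests used limma 3.58.1 in R 4.3.3 on the arrays of the compared groups, two-sided, with Benjamini-Hochberg adjustment over 11243 genes and a threshold of 0.05; the procedure was tested on simulated data. Array numbers limit the precision. The 7 genes, their relatives and the marker lists were chosen with earlier results of these data known. Named are all 7 genes, relatives that passed (up to 4 a list and comparison by size, or the 2 brightest), the nearest tested gene on each side, the 2 nearest profiles, and fixed checks. Replicate numbers were not a block in the tests reported first. In the region comparisons they pair the arrays: deviations of same-numbered arrays correlated at 0.344 to 0.840. Between mutants and controls they do not. Alternatives without Gh-positive arrays, and the count of relatives with only ret mutant 3, were chosen after seeing the data.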

Additional observations from a re-analysis of the deposited data

Results flagged for a closer look

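In the 42 sets of 4 arrays (7 genes in 6 groups), 6 had an array far from the other 3, with a gap to its neighbour above 0.829 of the range; chance flags about 1 set in 20. Vstm4 read 5.82 on ret mutant 4, the array on which 5 of the 7 genes were highest. 5033404E19Rik was low at 7.67 on R26P control cerebrum 2, where Lin7a was high at 9.95. The other 3 are small steps near background: 5033404E19Rik read 2.71 on R26P mutant cerebrum 1 and 2.28 on cerebellum 1 of the same number, and Pla1a read 2.26 on R26P mutant cerebrum 2.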

How the results depend on the processing

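The members' falls kept their sign under every alternative run: leaving out 1 array gave a median of −4.50 to −3.96 for the ret model, −4.65 to −4.32 for R26P cerebrum and −3.96 to −3.46 for cerebellum. The count of members called between regions stayed 0 in wild type and in R26P mutants. In R26P controls it was 3, and became 0 with no filter on low signal, 1 with probe sets averaged per gene, 0 without the Gh-positive arrays, and 0 to 3 with 1 array left out. The replicate block, which pairs the arrays, gave 5 and changed no other region call. Leaving out 1 array, Grm3 in wild type ran from −0.29 to 0.06 (without cerebellum array 3), and 5033404E19Rik in R26P mutants from −0.15 to 0.02 (without cerebrum array 1). Relatives called in R26P cerebrum, 10, became 6 with no filter, 5 with the replicate block, whose numbers do not pair mutants with controls, 2 without the Gh-positive arrays, and 5 to 11 with 1 array left out. In ret mutants the count of 9 became 4 with ret mutant 3 alone and 7 to 11 with 1 array left out, and in R26P cerebellum 6 became 4 to 8. Apart from the replicate block between regions, these counts stand without the share of all genes called in the same setting. A lost call therefore need not be particular to the members or relatives. Averaging probe sets took the Steap4 difference from 0.51 to 0.23 in wild type. The cause of these changes was not tested. The number of arrays limits the precision.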
